A study of Mus musculus with 26 samples.

Results

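The genes described here encode the platelet-derived growth factor (PDGF) ligands *Pdgfa*, *Pdgfb*, *Pdgfc* and *Pdgfd* and the PDGF receptors *Pdgfra* and *Pdgfrb* of the mouse. They were chosen by name, as 6 of the 16426 genes in the single-cell count tables of the retinal pigment epithelium (RPE) and choroid, and not by any measured value. On GRCm38 (GENCODE M21), *Pdgfa* lies on chromosome 5 at 138976014 to 138997370, *Pdgfb* on chromosome 15 at 79995874 to 80014977, *Pdgfc* on chromosome 3 at 81036416 to 81214040, *Pdgfd* on chromosome 9 at 6168584 to 6378850, *Pdgfra* on chromosome 5 at 75152292 to 75198215 and *Pdgfrb* on chromosome 18 at 61045150 to 61085061. In the bulk tables of group means, 5 of the 6 had a row among 17623 genes, and *Pdgfb* was not analysed there.

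PDGFs are secreted dimers that bind receptor tyrosine kinases on the cell surface. The A and B chains are active once processed inside the cell, whereas the C and D chains carry a CUB domain that must be cut off by proteases outside the cell before the growth factor domain can bind. PDGF receptor α binds the A, B and C chains, and PDGF receptor β binds mainly the B and D chains. In many vascular beds, ECs secrete PDGF-B and the mural cells around them, pericytes and smooth muscle cells, carry PDGF receptor β, while PDGF receptor α is a common marker of fibroblasts. The choroid is the vascular layer behind the RPE, and its innermost capillary bed is the choriocapillaris.

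The series holds 26 samples in 10 groups, of which 14 libraries enter here. Single cells came from RPE/choroid of 3-month-old B6129PF1/J and C57BL/6J mice, with 1 scRNAseq library per strain, each made from pooled tissue of a male and a female eye and sorted as nucleated live cells. The authors clustered the cells of both libraries into 13 clusters: cluster 1 is RPE, clusters 2 to 4 are ECs with falling *Kdr* (VEGF receptor 2), clusters 5 to 8 are stromal cells, clusters 12 and 13 are Schwann cells, cluster 9 holds smooth muscle cells, cluster 10 melanocytes and cluster 11 hematopoietic cells. Bulk RNA came from whole RPE/choroid of 6-month-old C57BL/6J mice and from cultured choroidal GLI1+ cells. The tissue was from *Ihh*+/+ mice (3 libraries) and from mice with Indian hedgehog deleted in ECs, *Ihh* iΔEC/iΔEC (3 libraries). Both genotypes carried the tamoxifen-inducible *Cdh5*-PAC-CreERT2 driver, which drives Cre in ECs, and both were given tamoxifen 12 weeks before tissue collection. The GLI1+ cells were sorted by GFP from *Gli1* GFP/+ mice, expanded in culture and treated for 24 h with DMSO (3 libraries) or with 100 nM SAG, an agonist of the Hedgehog transducer Smoothened (3 libraries). The labels give their strain as SWR/J, and by the study's methods this reporter line had been outcrossed to BALB/c and its offspring intercrossed.

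The B6129PF1/J library held 3637 cells with a median of 3881 unique molecular identifiers (UMIs) per cell. The C57BL/6J library held 3928 cells with a median of 3174.5 UMIs. Both libraries held fewer cells than the paper reports, and the sizes of the clusters also differed from the paper's. The 2 libraries shared 22 cell barcodes. No cell was removed here as a doublet. Cells with UMIs of both *Xist* and *Ddx3y* mark a female and a male cell under 1 barcode. Such cells numbered 35 in the B6129PF1/J library and 33 in the C57BL/6J library. These were 0.962% and 0.840% of cells. They leave out doublets of 1 sex and those in which either gene was missed. The paper's corrected estimate was about 4%, from a study that reports more cells. The summed markers of Schwann cells, melanocytes, RPE, hematopoietic cells and smooth muscle were highest in the clusters of that name in both libraries. EC markers (*Cdh5*, *Pecam1*, *Cldn5*) were highest in cluster 4, stromal markers (*Col1a1*, *Col1a2*, *Dcn*, *Lum*) in cluster 7, and pericyte markers in cluster 6, closely followed by cluster 9. In cluster 6, which is deposited as stromal cells, the 6 pericyte markers (*Rgs5*, *Kcnj8*, *Abcc9*, *Cspg4*, *Notch3*, *Higd1b*) summed to 107.4 UMIs per 10,000 in the B6129PF1/J library and 105.6 in the C57BL/6J library, against 99.2 and 104.7 in the smooth muscle cells. The markers of rods, of which *Pde6b* was not measured, summed to at most 0.230 UMIs per 10,000 in any cluster. Of the lists for cell types with no cluster of their own, platelet markers were highest in cluster 11 through *Pf4*, oligodendrocyte precursor markers in cluster 12 through *Sox10*, and retinal glia markers in cluster 4 through *Glul*.

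Levels below are UMIs of a gene per 10,000 UMIs of all genes, summed over the cells of a cluster in 1 library. Brackets hold exact Poisson 95% intervals, which, like the exact Clopper-Pearson intervals of shares, cover counting error only. With 1 library per strain, cells are not replicates, so no test was made and every comparison between clusters or strains is a description of these libraries.

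*Pdgfb*, which encodes the B chain, was the ligand with the largest share of its UMIs in ECs. They held 93.5% (90.8 to 95.5) of its 474 UMIs in the B6129PF1/J library and 90.7% (87.7 to 93.2) of its 453 UMIs in the C57BL/6J library. It was lowest in cluster 2 and highest in cluster 4, the reverse of *Kdr*. In the B6129PF1/J library, *Pdgfb* had 0.724 UMIs per 10,000 (0.609 to 0.856) in cluster 2, 1.03 (0.908 to 1.17) in cluster 3 and 1.71 (1.29 to 2.22) in cluster 4. In the C57BL/6J library, the *Pdgfb* levels were 0.723 (0.605 to 0.857), 0.842 (0.736 to 0.959) and 1.57 (1.17 to 2.06) in the same order. Both steps were larger than counting error in the B6129PF1/J library, whereas clusters 2 and 3 overlapped in the C57BL/6J library. *Kdr* had 16.4, 8.86 and 0.611 UMIs per 10,000 in clusters 2, 3 and 4 of the B6129PF1/J library and 14.01, 6.27 and 0.907 in those of the C57BL/6J library. Outside ECs, *Pdgfb* was at most 0.167 UMIs per 10,000. The highest of these levels with more than 4 UMIs behind them were those of hematopoietic cells, 0.146 (0.0631 to 0.288) and 0.132 (0.0570 to 0.260). RPE, set beside them as a cell type outside the vessels, had a *Pdgfb* UMI in 0.491% (0.0596 to 1.76) and 0.267% (0.00677 to 1.48) of its cells, against 32.7% and 27.2% of ECs. The median depth was 5263 and 3406.5 UMIs per cell in RPE and between 2954 and 4232.5 in the EC clusters. With every cell thinned to 1700 UMIs, *Pdgfb* was seen in 8.92%, 13.3% and 19.05% of the cells of clusters 2, 3 and 4 in the B6129PF1/J library, in 10.7%, 13.7% and 15.3% in the C57BL/6J library, and in no RPE cell. At this equal depth the intervals of these shares overlapped between any 2 of clusters 2, 3 and 4 in both libraries. They were 6.22 to 12.3 and 7.83 to 14.1 in cluster 2, against 10.2 to 30.9 and 7.88 to 25.7 in cluster 4.

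*Pdgfa*, which encodes the A chain, had the widest distribution. Its highest level was in cluster 12, with 2.75 UMIs per 10,000 (2.19 to 3.40) in the B6129PF1/J library and 2.42 (1.87 to 3.08) in the C57BL/6J library. Smooth muscle cells followed, with *Pdgfa* at 2.21 (2.00 to 2.44) and 1.93 (1.73 to 2.14), within the counting error of cluster 12. Cluster 12 is the Schwann cluster with the lower sum of Schwann markers, 51.9 and 52.1 UMIs per 10,000 against 497.9 and 387.6 in cluster 13. Next came EC cluster 4 with 1.31 (0.951 to 1.77) and 1.09 (0.762 to 1.51), and then cluster 6, with 1.15 (1.003 to 1.302) and 1.04 (0.897 to 1.19). RPE had *Pdgfa* at 1.11 (0.997 to 1.24) and 0.852 (0.721 to 1.00), and EC cluster 3 at 0.837 (0.726 to 0.961) and 1.01 (0.890 to 1.13). From cluster 4 downwards, each cluster overlapped its neighbour in the order in both libraries. The level of *Pdgfa* was low in the 3 stromal clusters that carried *Pdgfra*. In clusters 5, 7 and 8 it was 0.101, 0.212 and 0.142 UMIs per 10,000 in the B6129PF1/J library, and 0.181, 0.340 and 0.0838 in the C57BL/6J library. Clusters 5, 7 and 8 together, a grouping made after the values were seen, held 3.83% (2.93 to 4.91) and 5.79% (4.58 to 7.22) of *Pdgfa* UMIs, whereas clusters 6 and 9 held 40.7% (38.2 to 43.2) and 42.5% (39.8 to 45.3).

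Of the ligands that need cleavage outside the cell, *Pdgfd* had most of its UMIs in ECs and in clusters 6 and 9. It was highest in EC cluster 2, the *Kdr*-high cells, with 0.646 UMIs per 10,000 (0.537 to 0.770) in the B6129PF1/J library and 0.526 (0.426 to 0.642) in the C57BL/6J library. In cluster 3 it was lower, at 0.269 (0.208 to 0.343) and 0.345 (0.279 to 0.423), with intervals apart from those of cluster 2 in both libraries. Cluster 4, with 63 and 72 cells, had *Pdgfd* at 0.519 (0.303 to 0.832) and 0.393 (0.209 to 0.672), a range that overlapped both. Smooth muscle cells had 0.485 in each library (0.388 to 0.598 and 0.389 to 0.599), and cluster 6 had 0.450 (0.363 to 0.552) and 0.368 (0.287 to 0.465). Cluster 2 thus had the highest *Pdgfd* and the lowest *Pdgfb* of the EC clusters in both libraries. ECs held 44.4% (39.8 to 49.0) and 48.9% (44.0 to 53.8) of *Pdgfd* UMIs, and clusters 6 and 9 held 38.5% (34.1 to 43.1) and 38.0% (33.3 to 42.9). RPE held 10.6% (7.95 to 13.8) and 6.54% (4.35 to 9.37) of them, at levels of 0.163 (0.121 to 0.216) and 0.154 (0.102 to 0.225). In cluster 8, *Pdgfd* had no UMI in the 160 cells of the B6129PF1/J library, where 3 UMIs would be a level of 0.0475, and 2 UMIs in the 160 cells of the C57BL/6J library, a level of 0.0419 (0.00507 to 0.151).

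*Pdgfc* was the sparsest member, with 92 UMIs in the B6129PF1/J library and 55 in the C57BL/6J library. RPE held 54.3% (43.6 to 64.8) and 38.2% (25.4 to 52.3) of them, at 0.167 UMIs per 10,000 (0.124 to 0.220) and 0.120 (0.0744 to 0.184). Stromal cluster 7 had 0.200 (0.117 to 0.321) from 17 UMIs in the B6129PF1/J library and 0.0340 (0.00412 to 0.123) from 2 UMIs in the C57BL/6J library, so its highest cluster was cluster 7 in one library and RPE in the other. At 1700 UMIs per cell, RPE was the highest cluster in both. In clusters 4, 8, 12 and 13, *Pdgfc* had no UMI in either library. The upper bounds of these levels were 0.113 and 0.111 in cluster 4, 0.0583 and 0.0772 in cluster 8, 0.121 and 0.135 in cluster 12, and 0.343 and 0.308 in cluster 13. Those of cluster 13 in both libraries and of cluster 12 in the C57BL/6J library lay above the RPE level.

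**Figure D1:**
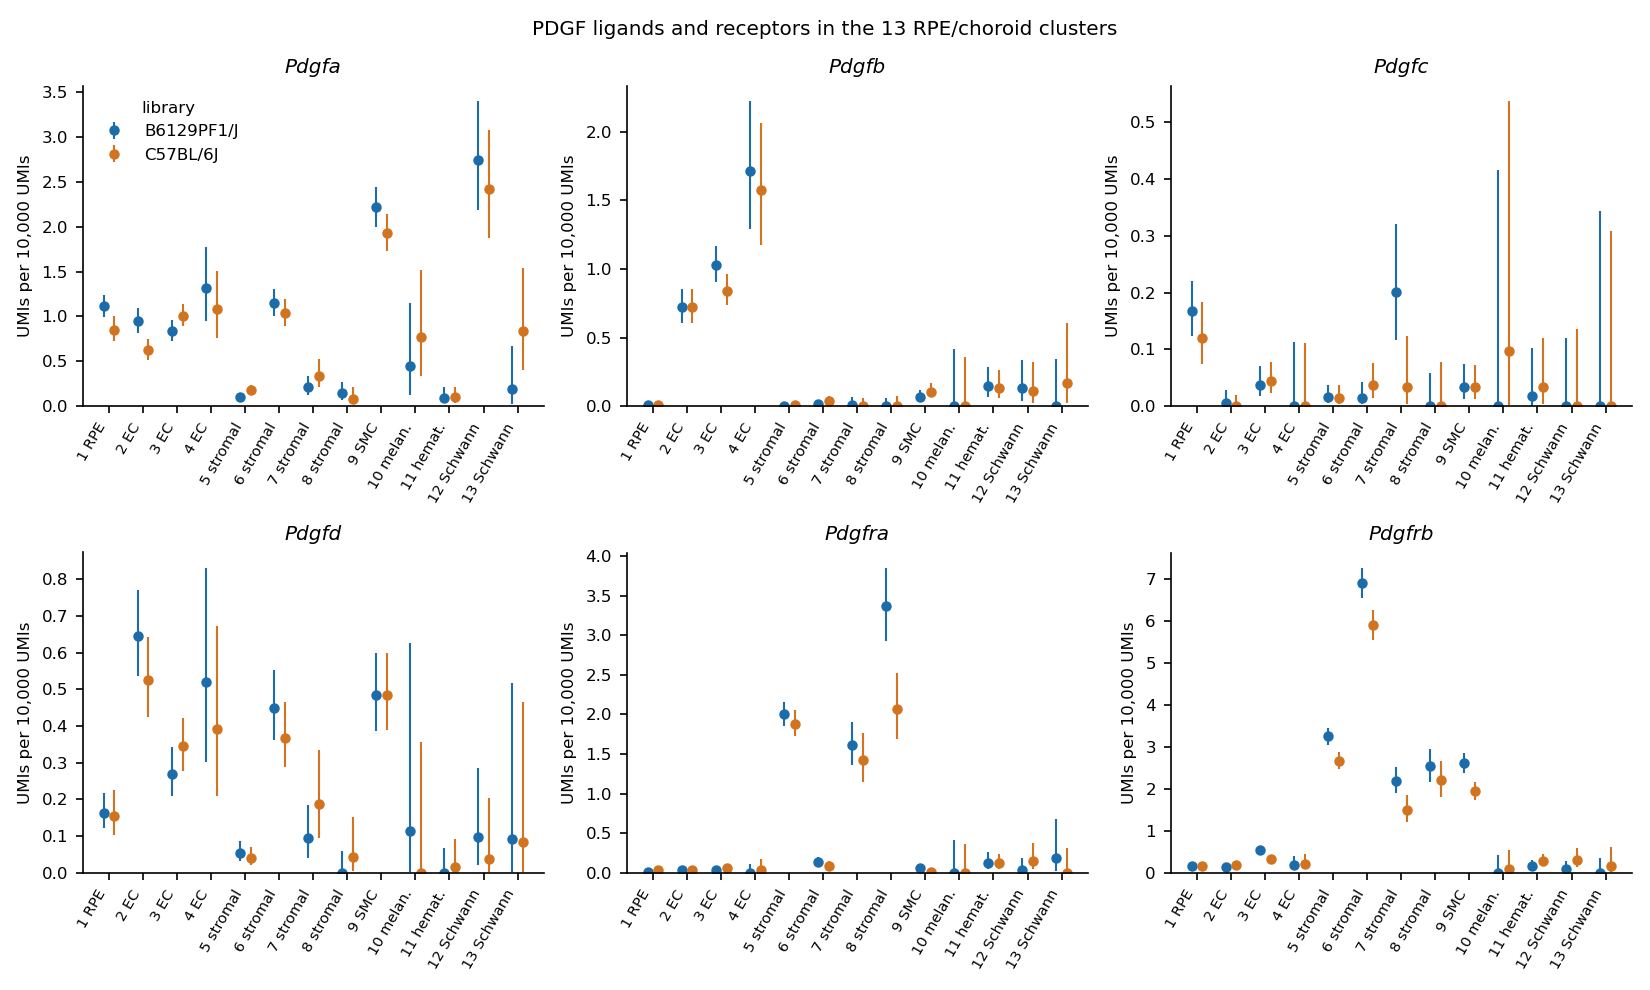
Levels of the 6 genes in the 13 clusters, as UMIs per 10,000 UMIs of all genes, with exact Poisson 95% intervals (counting error only); blue points are the B6129PF1/J library and orange points the C57BL/6J library, 1 library each, and each panel has its own linear scale. *Pdgfb* was high in the 3 EC clusters only, with its highest level in cluster 4, *Pdgfra* was high in stromal clusters 5, 7 and 8, and *Pdgfrb* was high in clusters 5 to 9 with its peak of 6.90 and 5.90 in cluster 6.

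Of the receptors, *Pdgfra* divided the stromal clusters, whereas *Pdgfrb* was found in all of them. *Pdgfra* encodes PDGF receptor α, and clusters 5, 7 and 8 held 93.6% (92.0 to 95.03) of its 1052 UMIs in the B6129PF1/J library and 92.4% (90.3 to 94.2) of its 762 UMIs in the C57BL/6J library. Cluster 8 had the highest *Pdgfra* level, above cluster 5 in the B6129PF1/J library and with overlapping intervals in the C57BL/6J library. In smooth muscle cells *Pdgfra* was at 0.0563 (0.0270 to 0.104) and 0.0112 (0.00135 to 0.0403), and in RPE at 0.01 (0.00206 to 0.0292) and 0.0286 (0.00929 to 0.0668).

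*Pdgfrb* encodes PDGF receptor β and spanned all of clusters 5 to 9, which held 93.7% (92.9 to 94.5) of its 3467 UMIs in the B6129PF1/J library and 93.0% (91.9 to 93.9) of its 2581 UMIs in the C57BL/6J library. Its level of 6.90 UMIs per 10,000 (6.54 to 7.27) and 5.90 (5.56 to 6.25) in cluster 6 was 2.12 and 2.21 times that of cluster 5, the next in order. Smooth muscle cells, which shared the high *Rgs5* of cluster 6, had *Pdgfrb* at 2.61 (2.38 to 2.86) and 1.94 (1.74 to 2.15). Their intervals lay below those of cluster 5 and overlapped those of cluster 8 in both libraries. A UMI of *Pdgfrb* was seen in 86.7% (83.5 to 89.4) and 82.9% (79.7 to 85.8) of cluster 6 cells, and in 65.3% and 63.2% of them when every cell was thinned to 1700 UMIs. Beside this, 1.85% (0.225 to 6.53) and 3.70% (1.02 to 9.21) of cluster 12 Schwann cells had a *Pdgfrb* UMI, and cluster 12 had median depths of 2517 and 2299 UMIs per cell against 3595 and 2870 in cluster 6.

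*Pdgfra* and *Pdgfrb* were found in the same cells of clusters 5, 7 and 8. In cluster 5 of the B6129PF1/J library, 268 of 848 cells had a UMI of both receptors, 123 of *Pdgfra* only, 279 of *Pdgfrb* only and 178 of neither. In the C57BL/6J library, 191 of the 839 cells of cluster 5 had both. After thinning to 1700 UMIs, cells with both receptors made up 11.4%, 8.11% and 17.5% of clusters 5, 7 and 8 in the B6129PF1/J library and 8.82%, 7.59% and 6.88% in the C57BL/6J library. At that depth, *Pdgfra* was seen in 28.4% (23.6 to 33.5) of cluster 5 cells with a *Pdgfrb* UMI and in 24.9% (21.2 to 28.9) of those without one in the B6129PF1/J library. In the C57BL/6J library, the thinned shares were 26.4% (21.4 to 32.0) and 27.4% (23.7 to 31.3). The intervals overlapped in both libraries, and 58.5% and 67.7% of all cells with *Pdgfra* had 1 UMI of it. In cluster 6, by contrast with its *Pdgfrb*, *Pdgfra* was seen in 4.07% (2.57 to 6.09) and 2.32% (1.28 to 3.86) of cells.

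**Figure D2:**
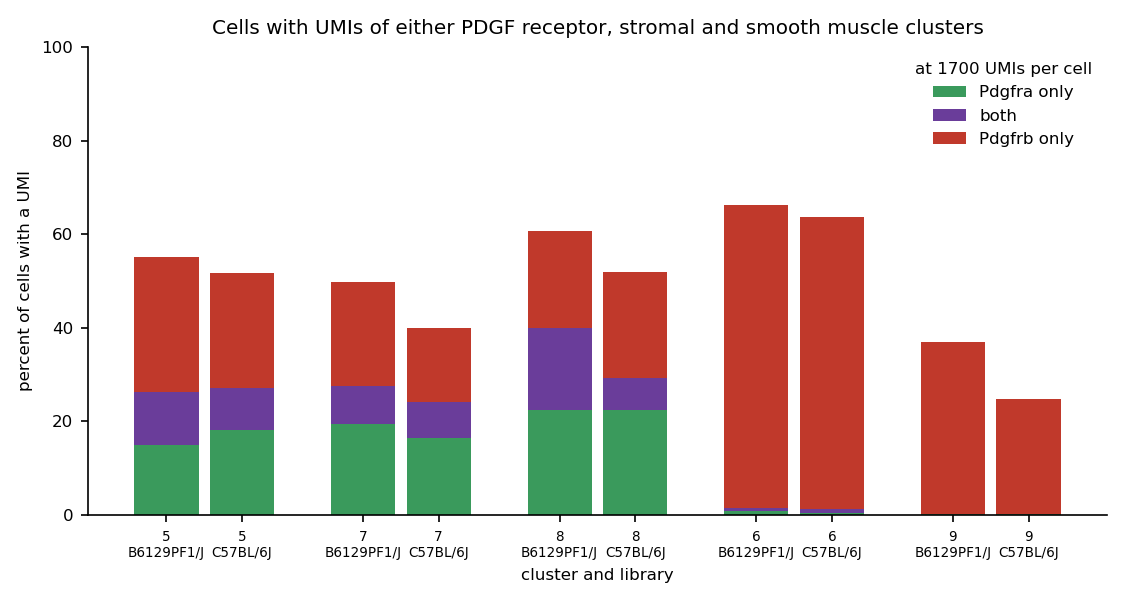
Percent of the cells of clusters 5, 7, 8, 6 and 9 in each library with a UMI of *Pdgfra* only (green), of both receptors (purple) or of *Pdgfrb* only (red), after each cell was thinned to 1700 UMIs; the remaining cells had neither. Cells with *Pdgfra* made up 24.1% to 40% of clusters 5, 7 and 8, whereas nearly all receptor-bearing cells of clusters 6 and 9 had *Pdgfrb* only.

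ECs had a low level of *Pdgfrb* that was carried by few cells. In cluster 3 its level was 0.531 UMIs per 10,000 (0.443 to 0.631) in the B6129PF1/J library and 0.315 (0.252 to 0.390) in the C57BL/6J library, from 36 of 430 cells and 37 of 549 cells. Those cells also carried the pericyte markers. *Rgs5* was at 32.8 UMIs per 10,000 (30.9 to 34.8) in cluster 3 cells with a *Pdgfrb* UMI and at 0.540 (0.444 to 0.649) in the others of the B6129PF1/J library, and at 26.3 (24.5 to 28.2) and 0.787 (0.679 to 0.908) in the C57BL/6J library. The other 5 pericyte markers were higher in these cells as well, with intervals apart in both libraries. Cluster 3 cells with a *Pdgfrb* UMI had median depths of 8894.5 and 6467 UMIs, against 4008 and 3337 in cells without one. The part of pericyte RNA and of depth in this level was not tested.

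**Figure D3:**
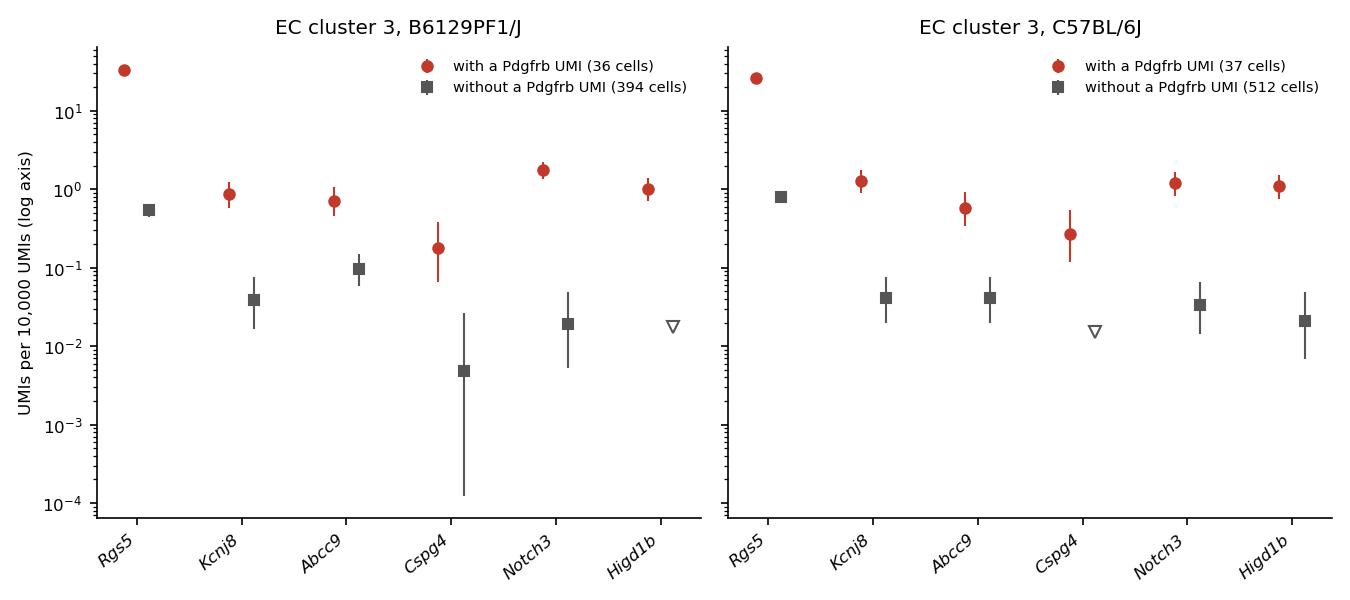
Levels of 6 pericyte markers, as UMIs per 10,000 on a log axis, in EC cluster 3 cells with (red circles) and without (gray squares) a UMI of *Pdgfrb* in each library, with exact Poisson 95% intervals; an open triangle is the upper bound of a marker with 0 UMIs. All 6 markers were higher in the 36 and 37 cells with *Pdgfrb* than in the 394 and 512 cells without it.

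Between the strains, the levels of a gene in the same cluster were compared where both libraries together had at least 10 UMIs. Intervals did not overlap for 7 of 51 pairs of member and cluster with the B6129PF1/J library higher, and for 0 with the C57BL/6J library higher, against 2.88% and 3.26% of 110025 pairs over all genes. Since counting error is smaller for more abundant genes, the 22 member pairs with at least 100 UMIs were also set beside all such pairs. All 7 were among them, against 6.31% of 38992 pairs with B6129PF1/J higher and 7.15% with C57BL/6J higher over all genes. *Pdgfrb* made up 5 of the 7, in clusters 3, 5, 6, 7 and 9, where its level in the B6129PF1/J library was 1.68, 1.22, 1.17, 1.46 and 1.35 times that in the C57BL/6J library. The others were *Pdgfra* in cluster 8, at 3.37 (2.93 to 3.85) against 2.07 (1.68 to 2.52), and *Pdgfa* in cluster 2, at 0.945 (0.812 to 1.09) against 0.624 (0.515 to 0.750). The B6129PF1/J library was also the deeper one, and strain, library and depth cannot be told apart. The highest cluster was the same in both libraries for 5 of the 6 genes, all but *Pdgfc*, against 48.1% of 11193 genes with at least 50 UMIs in each library.

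The genes with the most similar levels over the 13 clusters were ranked by the lower of the Pearson correlations of the 2 libraries, on log2(UMIs per 10,000 + 0.1), over 13 clusters that share a library and its depth. *Pdgfb* was most like *Nos3* (r = 0.962 and 0.949), the endothelial nitric oxide synthase, followed by *Myct1* (0.952 and 0.944) and *Arhgef15* (0.948 and 0.942). *Pdgfra* was most like *Cpxm1* (0.974 and 0.974), *Crym* (0.971 and 0.961) and *Mfap4* (0.954 and 0.946), which encodes a microfibril-associated protein. *Pdgfrb* was most like *Ptgir* (0.966 and 0.980), the prostacyclin receptor, and *Tbx18* (0.951 and 0.952), a transcription factor gene, also ranked among its first 3. *Pdgfd* was most like *Apold1* (0.881 and 0.908), *Nrarp* (0.855 and 0.839), a Notch-regulated gene, and *Msrb3* (0.835 and 0.889). For *Pdgfa*, *Bcar3* (0.910 and 0.850), *Sorbs2* (0.838 and 0.814) and *Zfp367* (0.791 and 0.779) ranked first. *Pdgfc*, at its low counts, had weaker likeness to any gene, with *Fgfrl1* (0.755 and 0.7995), *Ncbp2* (0.699 and 0.778) and *Chac2* (0.691 and 0.732) first. On a linear scale, 0 of the 3 first genes stayed among the first 3 for *Pdgfrb*, *Pdgfa* and *Pdgfd*, 1 for *Pdgfb* and *Pdgfc*, and 2 for *Pdgfra*. Among the members themselves, the receptors had r = 0.608 and 0.602 with each other, and *Pdgfa* and *Pdgfra* had r = -0.690 and -0.677.

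A list of 23 further genes of PDGF signaling covered ligand processing, ligand binding, signal transducers and negative regulators. By the criterion of the same highest cluster in both libraries and at least 3 times the level of the next cell type, 2 of them were named. *Furin*, a proprotein convertase that cuts the A and B chains inside the cell, was highest in stromal cluster 5, with 2.68 and 2.75 UMIs per 10,000 against 0.713 and 0.660 in the next cell type. Cluster 6 overlapped cluster 5, with *Furin* at 2.62 (2.41 to 2.86) and 2.50 (2.28 to 2.74), whereas stromal cluster 7 was lower, at 0.330 (0.219 to 0.477) and 0.664 (0.472 to 0.907). *St14*, which encodes matriptase, a protease that can cut the D chain, was highest in EC cluster 4, from 6 UMIs in the B6129PF1/J library and 4 in the C57BL/6J library, against 0 UMIs in every other cell type. *Pdgfrl*, a receptor-like gene with no kinase domain, was stromal in both libraries, with its highest level in cluster 7 (3.57) in the B6129PF1/J library and in cluster 8 (2.20) in the C57BL/6J library, against at most 0.163 and 0.147 in any other cell type. Its pattern ranked 33rd in likeness to *Pdgfra*, with r of at least 0.894 in both libraries.

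The bulk comparisons asked how the members stand when Hedgehog signaling in the choroid is lowered by deletion of *Ihh* in ECs or raised by SAG. Only the authors' mean FPKM of each group was used, with no value of single libraries, so no error, test or number of replicates stands behind a difference, and a gene was called past 2-fold on log2(mean FPKM + 0.1) where the higher group had at least 1 FPKM. The targeted gene checked the labels first. *Ihh* had a mean of 1.53 FPKM in *Ihh*+/+ tissue and 0.454 in *Ihh* iΔEC/iΔEC tissue, and the Hedgehog target *Gli1* had 9.40 and 3.15. In GLI1+ cells, *Gli1* had a mean of 0.0280 FPKM with DMSO and 3.65 with SAG, and *Ptch1*, another target, 1.13 and 10.1.

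In *Ihh* iΔEC/iΔEC tissue, none of the 5 members was past 2-fold in either direction, against 1.03% of 11411 genes past 2-fold higher and 0.648% past 2-fold lower. The receptors had the lower ratios. *Pdgfra* had a mean of 11.1 FPKM in *Ihh*+/+ and 7.25 in *Ihh* iΔEC/iΔEC tissue, a ratio of 0.651, and 2.09% of all tested genes had a lower one. *Pdgfrb* had 19.2 and 15.99 FPKM, a ratio of 0.832, with 11.3% of genes lower. The ligands were close to equal between the groups. *Pdgfa* had means of 19.9 and 20.5 FPKM, *Pdgfc* 4.41 and 4.36, and *Pdgfd* 3.96 and 4.13, and their ratios lay between 0.990 and 1.04. Per length, the order of the means in *Ihh*+/+ tissue was *Pdgfa*, *Pdgfrb*, *Pdgfra*, *Pdgfc* and *Pdgfd*. The median log2 ratio of all tested genes was -0.04.

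The stromal markers were lower in the same comparison. All 4 had ratios between 0.524 (*Lum*) and 0.674 (*Dcn*), beside the ratio of 0.651 for *Pdgfra*. Together the stromal markers summed to 701.3 FPKM in *Ihh*+/+ and 445.6 in *Ihh* iΔEC/iΔEC tissue. In single cells their sum was highest in cluster 7 in both libraries. Cluster 5 held most *Pdgfra* UMIs, 635 of 1052 in the B6129PF1/J library and 521 of 762 in the C57BL/6J library. The 6 pericyte markers summed to 89.5 and 76.5 FPKM with ratios of 0.759 (*Abcc9*) to 1.04 (*Cspg4*), beside 0.832 for *Pdgfrb*. Most of these sums was *Rgs5*, at 69.4 and 57.4 FPKM. The median log2 ratio of the 5 pericyte markers tested was -0.04, as for all genes. *Pdgfrb* was also in the *Pdgfra*-bearing stromal clusters 5, 7 and 8, which held 39.7% and 36.1% of its UMIs in the B6129PF1/J and C57BL/6J libraries. Among the other lists, melanocyte markers summed to 1613 and 1020 FPKM, RPE markers to 3941 and 4897, and the rod markers, all 3 of them past 2-fold lower, to 48.1 and 15.4. The remaining sums were those of ECs (59.2 and 51.2), smooth muscle (56.7 and 50.7), hematopoietic cells (118.7 and 111.5), platelets (6.68 and 4.42), Schwann cells (32.4 and 32.1), retinal glia (226.3 and 289.0) and oligodendrocyte precursors (0.0160 and 0.0870). In bulk tissue, fewer cells of a type and less RNA per cell cannot be told apart. The part of the cell makeup in the *Pdgfra* and *Pdgfrb* differences was not tested.

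In cultured GLI1+ cells, which were sorted by the GFP reporter, the receptors were the most abundant members per length. With DMSO, *Pdgfra* had a mean of 39.2 FPKM and *Pdgfrb* 36.0, followed by *Pdgfa* (13.25), *Pdgfd* (13.1) and *Pdgfc* (12.9). EC markers summed to 0.229 FPKM in these cells, stromal markers to 4108 and smooth muscle markers to 612.2, the last through *Acta2* (334.6) and *Tagln* (276.7). Of the pericyte markers, *Rgs5* was at 0.321 FPKM and *Kcnj8* at 0.0110, while *Cspg4* and *Notch3* had 1.89 and 1.58.

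With SAG, again none of the 5 members was past 2-fold, against 0.368% of 10325 genes past 2-fold higher and 1.1% past 2-fold lower. *Pdgfra* had a mean of 28.0 FPKM with SAG, a ratio of 0.714 to DMSO, with 3.06% of genes lower. *Pdgfrb* had 30.4 FPKM, a ratio of 0.845, with 7.55% of genes lower. The CUB-domain ligands stood on the other side: *Pdgfc* had 16.8 FPKM, a ratio of 1.301, with 3.70% of genes higher. *Pdgfd* had 16.95 FPKM, a ratio of 1.298, with 3.80% of genes higher. *Pdgfa* had 12.98 FPKM, a ratio of 0.980. The median log2 ratio of all tested genes was 0.06, and the stromal markers had ratios of 0.819 (*Lum*) to 0.992 (*Dcn*). *Pdgfra* thus had the lowest ratio of the members both with *Ihh* deletion in whole tissue and with the agonist in cultured cells, and the materials were not compared by a test.

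**Figure D4:**
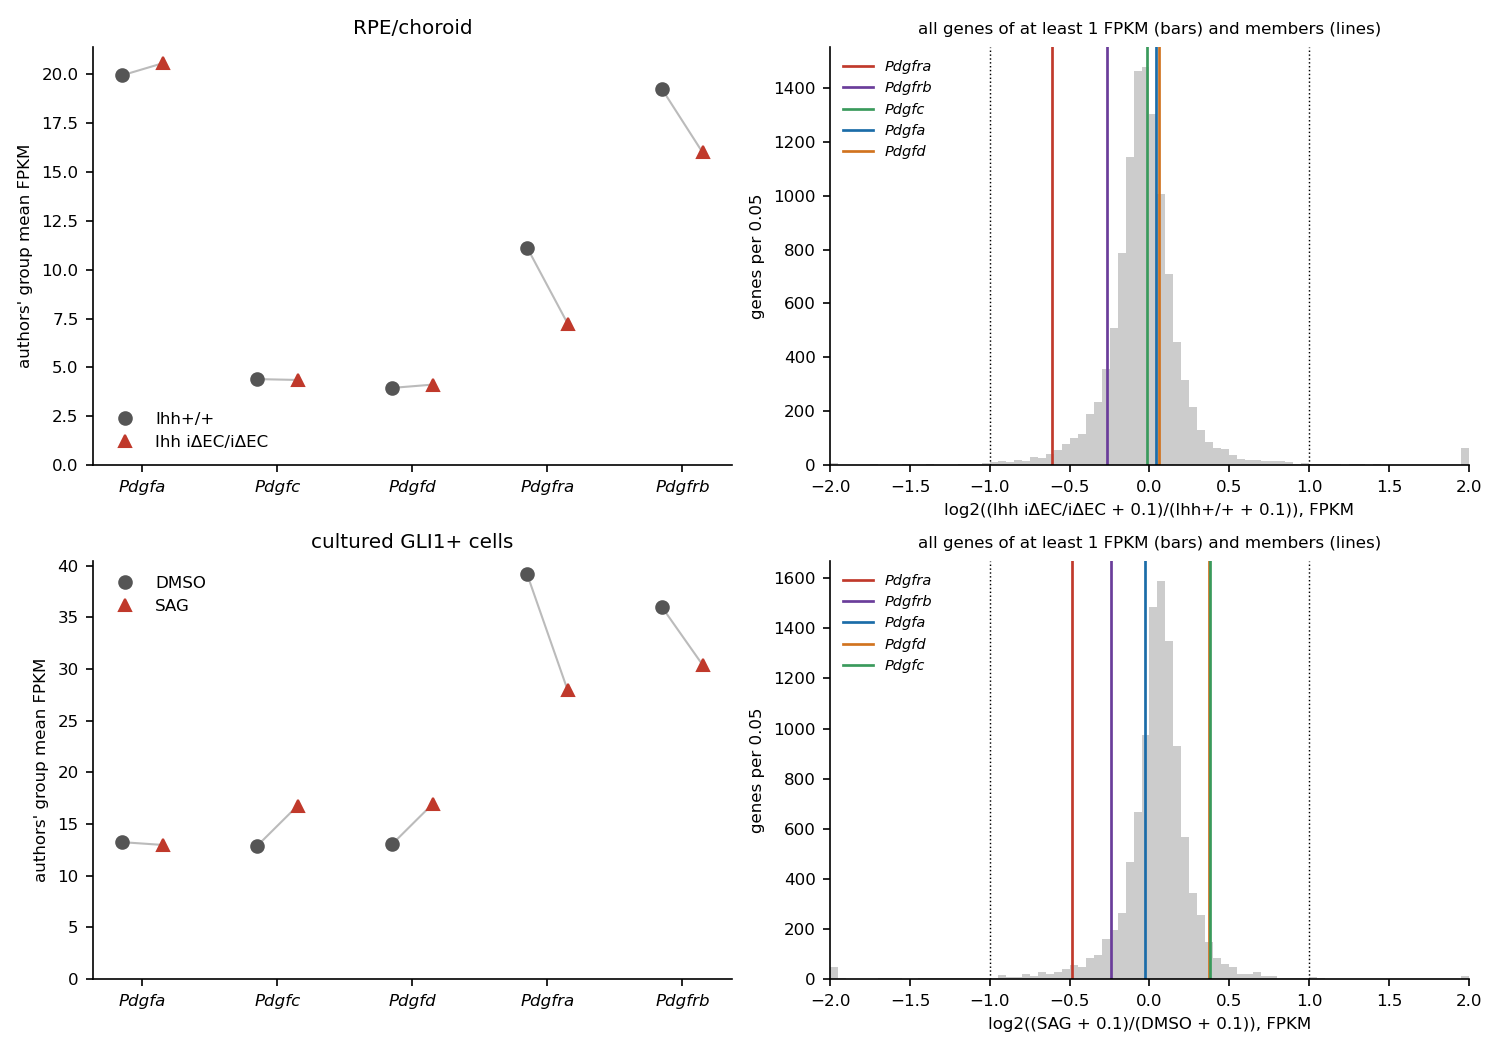
Left, the authors' mean FPKM of 5 members in RPE/choroid (top; gray circles *Ihh*+/+, red triangles *Ihh* iΔEC/iΔEC) and in cultured GLI1+ cells (bottom; gray circles DMSO, red triangles SAG), without error bars since the means have none; right, the log2 ratios of all genes of at least 1 FPKM as gray bars, with values past 2 or -2 gathered in the end bars, the members as colored lines and 2-fold as dotted lines. *Pdgfra* had the lowest ratio of the members in both comparisons (0.651 and 0.714), inside the 2-fold lines.

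None of the 22 pathway genes tested was past 2-fold in either comparison. With *Ihh* deletion 8 had a ratio above 1 and 14 below it, and their median log2 ratio was -0.07, beside -0.04 for all genes. With SAG 10 were above 1 and 12 below it, and the median was -0.06, beside 0.06 for all genes. The lowest were *Nck1*, an adaptor of the receptors, with *Ihh* deletion (6.72 and 5.06 FPKM) and *Plau*, the urokinase gene whose protease can cut the D chain, with SAG (4.77 and 3.51 FPKM), both named after their values were seen. By role, the ligand-binding genes *Sparc*, *Nrp1*, *Lrp1* and *Pdgfrl* were the group with the lowest median log2 ratio in both comparisons, -0.24 and -0.17. *Lrp1* went the other way with *Ihh* deletion (44.2 and 45.2 FPKM), and all 4 had ratios below 1 with SAG. *Pdgfrl* had means of 8.89 and 7.11 FPKM in the tissue and 53.6 and 44.9 in the cells.

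The promoters of the members with the largest ratios in GLI1+ cells are shown here, *Pdgfra* as the lowest and *Pdgfc* and *Pdgfd* as the highest. The sequences are RefSeq windows of 300 bases on GRCm38.p6, written 5′ to 3′ on the gene's strand. They lie at chr5:75152001-75152300 (*Pdgfra*, plus strand), chr3:81036166-81036465 (*Pdgfc*, plus strand) and chr9:6168236-6168535 (*Pdgfd*, plus strand). Against the GENCODE M21 starts given above, the *Pdgfc* window runs from 250 bases before the start to 50 bases from it on. The *Pdgfra* window ends at 75152300, just past the start of 75152292. The *Pdgfd* window ends at 6168535, before the start of 6168584, so it holds no base from that start on. Capitals mark matches on either strand to the letters GACCACCCA (a GLI consensus site), GGGCGG (a GC box) or TATAAA (a core promoter element).
Pdgfra: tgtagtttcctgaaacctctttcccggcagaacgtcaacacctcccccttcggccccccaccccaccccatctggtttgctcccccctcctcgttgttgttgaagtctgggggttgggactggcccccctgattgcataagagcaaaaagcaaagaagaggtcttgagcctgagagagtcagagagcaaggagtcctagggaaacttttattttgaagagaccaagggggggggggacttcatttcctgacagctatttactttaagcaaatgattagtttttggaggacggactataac
Pdgfc: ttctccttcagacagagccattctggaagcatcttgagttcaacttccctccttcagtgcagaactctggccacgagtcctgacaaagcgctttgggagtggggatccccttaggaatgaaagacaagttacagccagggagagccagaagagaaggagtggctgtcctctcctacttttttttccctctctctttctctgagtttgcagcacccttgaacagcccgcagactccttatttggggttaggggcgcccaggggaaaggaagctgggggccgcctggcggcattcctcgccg
Pdgfd: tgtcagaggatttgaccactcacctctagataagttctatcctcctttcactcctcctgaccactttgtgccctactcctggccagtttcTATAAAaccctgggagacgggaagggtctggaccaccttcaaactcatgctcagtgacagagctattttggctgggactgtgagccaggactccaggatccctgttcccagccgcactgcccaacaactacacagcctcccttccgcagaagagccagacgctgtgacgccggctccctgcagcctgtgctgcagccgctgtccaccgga

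Among these 3 windows the only match was TATAAA in *Pdgfd*, from base 91 of the window and so before the GENCODE start of the gene. TATAAA occurred in 13.6% of 32851 RefSeq promoter windows of this length, GGGCGG in 35.7% and GACCACCCA in 0.253%. The windows were 51.0% GC for *Pdgfra*, 55.0% for *Pdgfc* and 56.7% for *Pdgfd*. Of the windows of *Pdgfa*, one held 1 and the other 2 matches to GGGCGG and none to the other motifs, and they were 67.0% and 73.3% GC. A missing match says only that these letters were not in the window.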

How the data were processed

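The single-cell tables are raw UMI counts per gene and cell, deposited by the authors after Cell Ranger (mm10) and Seurat 2.1 filtering, with the authors' cluster of each cell. The bulk tables hold the authors' mean FPKM of each group (STAR 2.4.0f1 and Cufflinks 2.0.2 in the submitters' processing notes). The bulk depth is unknown. Their log2 fold change and adjusted p columns were not used, and 3 other deposited tables were not used here.

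Counts were summed per cluster and library and divided by all UMIs (17168578 in B6129PF1/J, 15230413 in C57BL/6J), with exact 95% intervals, in Python 3.11.15 with scipy 1.17.1. Cells were also thinned to 1700 UMIs. Bulk ratios used a pseudocount of 0.1 FPKM, a minimum of 1 FPKM in the higher group and 2-fold. The named genes were all members, the 3 genes most like each member, and pathway genes past 2-fold or with the same highest cluster at 3 times the next cell type. *Kdr*, *Gli1* and *Ptch1*, the groupings of clusters and the minimum of 100 UMIs were chosen after values were seen. The result for 1 of the genes most like a member is not reported here. Members and lists were chosen with earlier results of these data known. The scripts were tested on simulated data.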

Additional observations from a re-analysis of the deposited data

How the results depend on the processing

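Of 124 alternative values, 95 were held as unchanged and 29 as moved. A level or a share of cells had moved where it left its counting interval. A count of genes had moved where it changed by more than 1.5 times. A log2 ratio had moved where its sign changed, it crossed 2-fold or it changed by 1.5 times or more. The 12 likeness values had moved where fewer than all 3 genes were shared, and they made up 9 of the 29. All 6 shares of cells with both receptors moved, and thinning can only lower such a share. The sign of the log2 ratio of *Pdgfc* with *Ihh* deletion, near 0, was the only one to change. As a mean over cells, *Pdgfb* in cluster 4 of the B6129PF1/J library was 1.29 (1.71 as reported). At 1700 UMIs per cell, *Pdgfc* in cluster 7 was 0.0954 (0.200) and *Pdgfd* in cluster 2 was 0.811 (0.646) in that library. Cells with both receptors in clusters 5, 7 and 8 were then 11.4%, 8.11% and 17.5% in the B6129PF1/J library (31.6%, 26.5% and 38.1% with all UMIs) and 8.82%, 7.59% and 6.88% in the C57BL/6J library (22.8%, 13.9% and 16.9%). With median-of-ratios scaling, the log2 ratio of *Pdgfc* with *Ihh* deletion was 0.021 (-0.01). Genes past 2-fold higher with *Ihh* deletion (117) numbered 70 with a pseudocount of 1 FPKM, 294 with no minimum and 231 at 1.5-fold, and those lower (74) numbered 36, 150 and 275. With SAG, genes higher (38) numbered 18, 73 and 134 in the same order, and those lower (114) numbered 245 at 1.5-fold. At 1.5-fold, *Pdgfra* with *Ihh* deletion was the only member called, with 2.41% of genes called lower. Of the 3 genes most like each member, a linear scale shared 0 for *Pdgfa*, 1 for *Pdgfb*, 1 for *Pdgfc*, 0 for *Pdgfd*, 2 for *Pdgfra* and 0 for *Pdgfrb*. A minimum of 200 UMIs shared 2 for *Pdgfa*, *Pdgfc* and *Pdgfrb* and all 3 for the others. The cause was not tested.

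No paired analysis was possible because the single-cell groups have 1 library each and the bulk tables hold group means, which also left no replicate to leave out. Depth limits *Pdgfc* most, with 92 and 55 UMIs.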
